A study of Homo sapiens with 8 samples.

Results

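The genes described are HOXA3, HOXA4, HOXA5, HOXA6, HOXA7, HOXA9, HOXA10, HOXA11, MEIS1 and PBX3, chosen by symbol as known targets of KMT2A fusion proteins, with the HOXA locus also known to be bounded by CTCF sites. They are 10 of the 60754 genes and spike-in sequences in the expression table. Of the 10 members, 9 reached 1 TPM (an RNA level that corrects for transcript length and library total) in at least 1 library and were tested among 15614 genes, and HOXA11 did not.

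RNA-seq was made from CTCF AID2 SEM cells. SEM is a human B-ALL (B-cell acute lymphoblastic leukemia) line with a KMT2A rearrangement, which joins KMT2A to AFF1. All 4 groups shared a miniAID-mClover3 tag on both CTCF alleles and a lentiviral cassette that expressed a mutant OsTIR1 and a Zeocin resistance gene from the MND promoter, so that the auxin analog 5-Ph-IAA could degrade CTCF. The clones are named C17.2 and C3.2. C17.2 parental and C3.2 parental cells were untreated, and C17.2 resistant and C3.2 resistant cells had been kept for 36 days in 1 μM 5-Ph-IAA with 100 μg/ml Zeocin and then 48 h without either. According to the study, the resistant cells of C17.2 held a shortened CTCF without the tag beside the tagged CTCF, which had come back once the auxin analog was removed, and those of C3.2 carried a missense change within the tag. Each group had 2 libraries (8 in all), and each arm rests on 1 clone. The comparison of resistant with parental cells within a clone asks how RNA levels differed once cells had escaped long-term CTCF degradation. It cannot tell resistance apart from the long culture and the drugs.

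HOXA genes encode homeodomain transcription factors that lie side by side in 1 cluster and are active in blood stem and progenitor cells, then silenced as cells mature. MEIS1 and PBX3 belong to the TALE class of homeodomain proteins and bind DNA together with HOXA9 as its cofactors. KMT2A fusion proteins bind these genes and keep them active, and CTCF sites between HOXA genes separate active from silent chromatin.

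The HOXA members lie on the reverse strand of chromosome 7, from HOXA3 (chr7:27106184-27152583) past HOXA9 (chr7:27162438-27175180) and HOXA10 (chr7:27170605-27180261) to HOXA11 (chr7:27181157-27185232). MEIS1 lies on the forward strand at chr2:66433452-66573869, and PBX3 on the forward strand at chr9:125747345-125967377 (GRCh38, Gencode release 44). Promoter windows of 300 bases, 250 before and 50 after a RefSeq start site on GRCh38.p14, were found for 9 members (16 windows), and HOXA5 had none. The windows were searched on both strands for CACGTG, the E-box that USF1 and USF2 bind, for the core of the CTCF motif (CCA, AG and GGC in that order, with 2 bases of any kind between them), for TGATTNAT, a HOX and PBX motif, and for TGACAG, a MEIS motif. The E-box was in 4 of the 16 member windows, against 7.26% of all 35116 RefSeq windows. The CTCF core was in 1 HOXA10 window, against 2.41% of all windows, and the MEIS motif was in the HOXA4 and PBX3 windows, against 15.8%. None of the 16 windows held the HOX and PBX motif, which 2.82% of all windows held. These are letter matches and not shown binding sites. The 250 bases before the HOXA9 start site are printed whole because HOXA9 is the HOXA gene with the highest level here, and the other matches are printed with 12 or fewer bases on each side, 5′ to 3′ on the strand of the gene, with the motif in capitals.
HOXA9 upstream window with an E-box at -71, chr7:27165538-27165787: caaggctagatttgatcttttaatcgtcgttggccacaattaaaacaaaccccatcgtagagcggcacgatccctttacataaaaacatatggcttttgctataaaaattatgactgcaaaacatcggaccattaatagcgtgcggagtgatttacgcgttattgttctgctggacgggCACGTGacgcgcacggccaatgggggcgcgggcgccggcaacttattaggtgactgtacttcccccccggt
HOXA7 E-box at -5, chr7:27156663-27156692: catgtgggcggtCACGTGctgcggcgagct
HOXA4 E-box at -200, chr7:27130940-27130969: gtgggggcgctgCACGTGgggcacggggcg
HOXA3 E-box at -51, chr7:27118391-27118420: ttgacgtatgacCACGTGagcacataatac
HOXA10 CTCF core at -56, chr7:27179897-27179926: gcgcagccgCCACGAGATGGCgcacttccg
HOXA4 MEIS motif at -107, chr7:27130847-27130876: ggagtgggcactTGACAGcggggggagggg
PBX3 MEIS motif at -20 (letters of the other strand), chr9:125748151-125748180: aactttgccgagCTGTCAccctcccgctgg
Positions count from the start site to the motif's leftmost printed base, and negative values lie before the start site. The HOXA9 stretch is intronic in a longer HOXA9 transcript, and the HOXA3 and HOXA4 stretches are intronic in transcripts of the cluster. The stretches of HOXA7, HOXA10 and PBX3 lie in exons of those genes.

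HOXA9 and its cofactors MEIS1 and PBX3 had the highest mean levels of the members. MEIS1 had the highest mean level over the 8 libraries, 74.3 TPM (lowest 61.75, highest 87.31), above 94% of tested genes. HOXA9 followed at 63.1 TPM (51.71 to 77.82) and was below MEIS1 in 8 of 8 libraries, although their ranges overlapped. PBX3 averaged 49.9 TPM (23.32 to 75.76), and HOXA9 exceeded it in 6 of 8 libraries, all but the C17.2 parental ones. HOXA10, a posterior HOXA gene like HOXA9, averaged 29.6 TPM and HOXA7 23.8 TPM, with HOXA10 above HOXA7 in 7 of 8 libraries. A gap followed, since the lowest HOXA7 value (17.83 TPM) lay above every value of HOXA6. HOXA6 (mean 8.30 TPM) and HOXA5 (8.18 TPM) could not be ordered, with HOXA6 the higher in 5 of 8 libraries. HOXA3 (4.87 TPM) and HOXA4 (3.17 TPM) were the lowest of the 9 tested members, and HOXA3 was above HOXA4 in 7 of 8 libraries. HOXA11, the next gene of the cluster after HOXA10, was listed at 0 in 6 libraries and at 0.01 and 0.02 TPM in the others. HOXA10 and HOXA11 thus lie side by side, and of the pair only HOXA10 was expressed above 1 TPM. PBX3 also varied most, with an SD of 0.50 in log2(scaled TPM + 1) over the 8 libraries, and HOXA10 least, with 0.053.

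**Figure D1:**
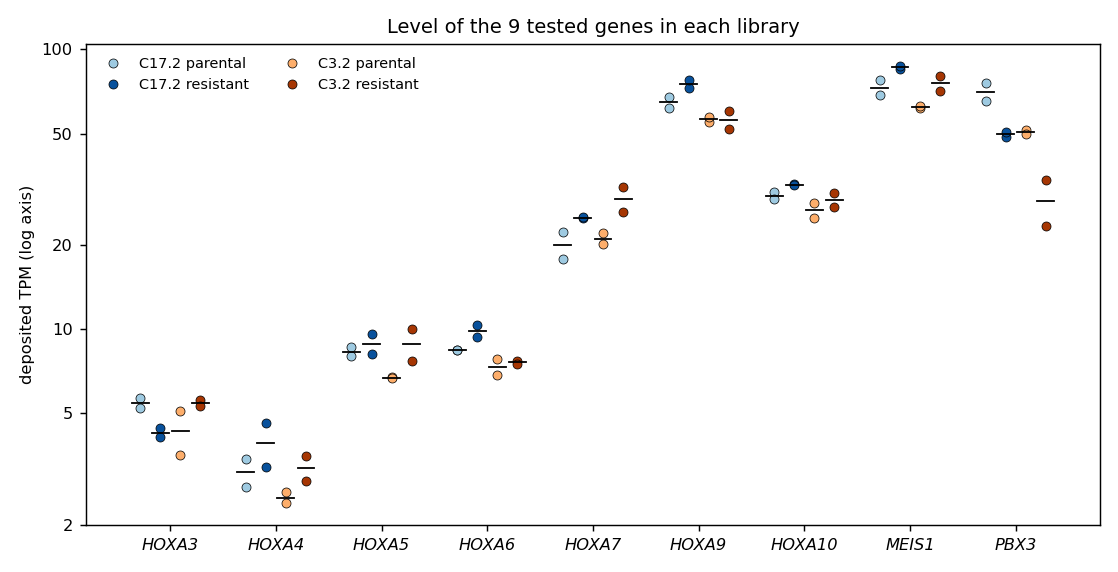
Deposited TPM of the 9 tested genes in each of the 8 libraries, on a log axis, with 1 point per library and a bar at the mean of the 2 libraries of a group. PBX3 has the resistant libraries of each clone below the parental ones. In these values, which are not scaled between libraries, HOXA9 runs from 51.71 to 77.82 TPM, HOXA10 from 24.91 to 32.95 and MEIS1 from 61.75 to 87.31.

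PBX3, the DNA-binding partner of HOXA9, fell in resistant cells of both clones, and no member passed the adjusted threshold as higher in either. In deposited TPM, PBX3 was 75.76 and 65.26 in C17.2 parental cells and 48.63 and 50.85 in C17.2 resistant cells. It was 51.60 and 49.77 in C3.2 parental cells and 34.08 and 23.32 in C3.2 resistant cells. Both resistant libraries lay below both parental libraries in each clone. In these unscaled values the C17.2 resistant libraries stood at about the level of the C3.2 parental ones, but after scaling they lay below them. The libraries were scaled to each other before testing, which left PBX3 at 72.8 and 66.5 scaled TPM in C17.2 parental cells against 43.4 and 44.1 in resistant cells. For C3.2 the scaled values were 57.4 and 53.6 TPM in parental cells against 34.8 and 25.1 in resistant cells. On log2(scaled TPM + 1), PBX3 changed by -0.66 in C17.2 (95% interval -0.996 to -0.32, 0.634-fold, limma with Benjamini-Hochberg adjusted p = 0.0169). In C3.2 it changed by -0.89 (-1.23 to -0.55, 0.541-fold, limma adjusted p = 0.0143). The 2 falls were not shown to differ in size (difference 0.23, interval -0.25 to 0.71, limma adjusted p = 0.508). Genes that fell in both clones made up 4.12% of those tested, and PBX3 was the only member among them.

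The PBX3 calls rest on few libraries. Leaving out any of the 4 C17.2 libraries moved the C17.2 value to between -0.72 and -0.59 and its adjusted p to between 0.0741 and 0.115, and on TPM without scaling the p was 0.0606. Leaving out any C3.2 library moved the C3.2 value to between -1.12 and -0.66. It was -1.12 with an adjusted p of 0.00341 without resistant replicate 1 and -0.66 with 0.0165 without resistant replicate 2. It was -0.84 with 0.11 without parental replicate 1, -0.93 with 0.0831 without parental replicate 2, and -0.89 with 0.125 when that clone was fitted alone. PBX3 kept its direction in all 21 alternative settings in each clone. It passed the threshold in 16 of them in C17.2 and in 18 in C3.2. In bulk RNA, fewer cells that express a gene and less RNA per cell cannot be told apart.

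Counted over the group, 2 of the 9 tested members passed the threshold of 0.05 in C17.2, PBX3 and HOXA3, both lower, where 27.2% of all tested genes passed in either direction, 12.9% higher and 14.2% lower. In C3.2, 1 of 9 passed, PBX3, where 11.3% of all tested genes passed, 4.54% higher and 6.74% lower. At an unadjusted p under 0.05, 2 of 9 passed in C17.2 (39.3% of all tested genes did) and 3 of 9, HOXA7, MEIS1 and PBX3, in C3.2 (27.6% did). The members' median log2 fold change was 0.05 in C17.2, beside -0.00 over all tested genes, and 0.21 in C3.2, beside 0.00. Values above 0 were found for 5 of 9 members in C17.2 and for 6 of 9 in C3.2. In scaled TPM, the resistant libraries lay wholly above the parental ones for HOXA7, HOXA9 and MEIS1 in C17.2 (3 of 9, against 32.4% of all tested genes) and wholly below for HOXA3, HOXA10 and PBX3 (against 33.4%). In C3.2 they lay wholly above for HOXA3, HOXA4, HOXA5, HOXA7 and MEIS1 (5 of 9, against 28.3%) and wholly below for PBX3 (against 27.7%).

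**Figure D2:**
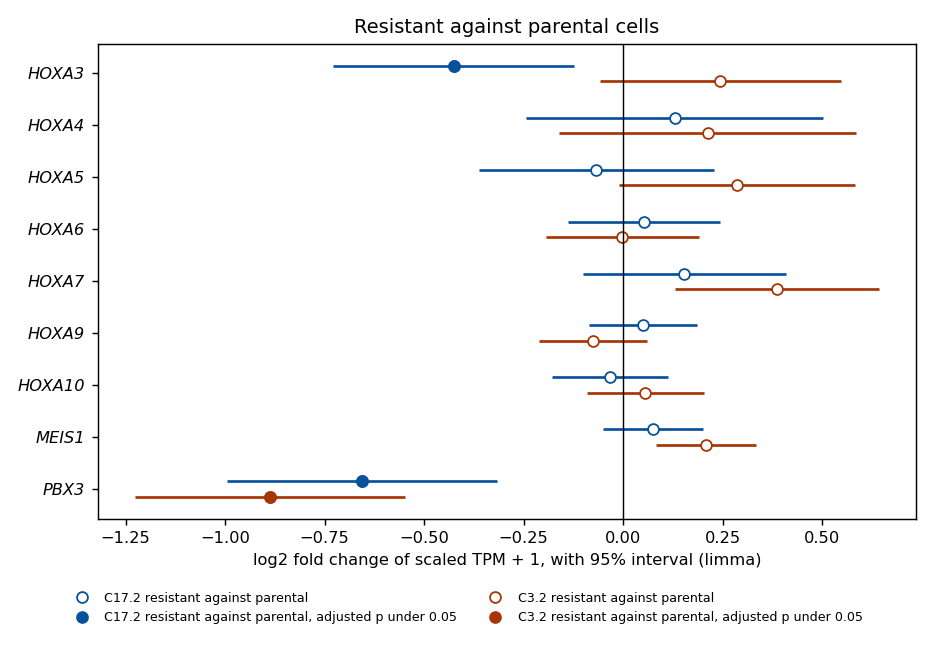
Log2 fold change of scaled TPM + 1 between resistant and parental cells for the 9 tested genes, with the 95% interval of the limma fit as a line, C17.2 in blue and C3.2 in brown. Filled points had an adjusted p under 0.05, and these are HOXA3 and PBX3 in C17.2 and PBX3 in C3.2.

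MEIS1, the other TALE cofactor, did not follow PBX3. It was 77.45 and 68.62 TPM in C17.2 parental cells and 85.42 and 87.31 in resistant cells, and 61.75 and 62.90 TPM in C3.2 parental cells and 80.28 and 70.81 in resistant cells. The resistant libraries lay above the parental libraries in both clones. On log2(scaled TPM + 1) the difference was 0.07 in C17.2 (interval -0.05 to 0.20, limma adjusted p = 0.34) and 0.21 in C3.2 (0.08 to 0.33, limma adjusted p = 0.0538). The C3.2 value lies just outside the threshold and passed it in 3 of 21 alternative settings (adjusted p from 0.0138 to 0.19 over all of them). In C17.2 MEIS1 passed in 1 of 21, TPM rescaled over protein-coding genes (0.17, adjusted p = 0.0486). MEIS1 shares 1437 of its 10942 exonic bases with the antisense RNA MEIS1-AS2, which reached at most 2.26 TPM.

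HOXA9, which drives self-renewal in KMT2A-rearranged leukemia, had no difference past the threshold. It was 67.60 and 61.82 TPM in C17.2 parental cells and 72.85 and 77.82 in resistant cells, and 55.18 and 57.42 TPM in C3.2 parental cells and 60.14 and 51.71 in resistant cells. The groups did not overlap in C17.2, and in C3.2 the resistant libraries lay on either side of the parental ones. The scaled differences were 0.05 in C17.2 (interval -0.09 to 0.19, limma adjusted p = 0.557) and -0.08 in C3.2 (-0.21 to 0.06, limma adjusted p = 0.436). Under this scaling, these intervals hold HOXA9 within 0.863-fold and 1.14-fold of its parental level. The bound depends on the scaling. In alternative settings other than leaving out 1 library, the difference ran from 0.05 to 0.22 in C17.2 and from -0.08 to 0.02 in C3.2.

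HOXA10, the neighbor of HOXA9 on the posterior side, also had no difference past the threshold. It was 30.80 and 29.09 TPM in C17.2 parental cells and 32.95 and 32.77 in resistant cells, and 24.91 and 28.32 TPM in C3.2 parental cells and 30.63 and 27.26 in resistant cells. In C17.2 the deposited TPM were higher in resistant cells and the scaled TPM lower (29.6 and 29.7 against 29.4 and 28.4), so the direction depends on the scaling. The scaled differences were -0.03 in C17.2 (interval -0.18 to 0.11, limma adjusted p = 0.732) and 0.06 in C3.2 (-0.09 to 0.20, limma adjusted p = 0.597). HOXA9 shares 422 of its 3033 exonic bases, and HOXA10 608 of its 3707, with the antisense RNA HOXA10-AS, which reached at most 3.00 TPM.

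HOXA7, next to HOXA9 on the anterior side, had the largest positive difference of the 9 tested members in each clone, although neither value passed the test. It was 22.22 and 17.83 TPM in C17.2 parental cells and 24.93 and 25.13 in resistant cells. In C3.2 it was 21.97 and 20.09 TPM in parental cells and 32.13 and 26.15 in resistant cells. The scaled difference was 0.15 in C17.2 (interval -0.10 to 0.41, limma adjusted p = 0.332) and 0.39 in C3.2 (0.13 to 0.64, limma adjusted p = 0.0684). The C3.2 value had an unadjusted p of 0.00976 and passed the adjusted threshold in 1 of 21 alternatives, TPM rescaled over protein-coding genes (0.48, adjusted p = 0.0292). Of the 2411 exonic bases of HOXA7, 1507 are shared with the antisense RNA HOXA-AS3, which reached at most 1.22 TPM. Whether reads were assigned by strand is not given in the sources used here.

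HOXA3, the most anterior of the members, was the only HOXA gene past the threshold, and only at its edge. It was 5.66 and 5.24 TPM in C17.2 parental cells and 4.43 and 4.11 in resistant cells, with no overlap. In C3.2 it was 3.56 and 5.08 TPM in parental cells and 5.59 and 5.32 in resistant cells. The C17.2 difference was -0.43 (interval -0.73 to -0.12, 0.745-fold, limma adjusted p = 0.0494), and the C3.2 difference was 0.24 (-0.06 to 0.55, limma adjusted p = 0.266). The C17.2 call was lost in 15 of 21 alternatives (adjusted p from 0.0157 to 0.212 over all of them), among them 4 of 5 other definitions of the library scale factors (0.0513 to 0.0609) and the removal of any C17.2 library (0.117 to 0.212). HOXA3 is therefore reported as a borderline value. Its exons share 296 of 4308 bases on the same strand with the RNA AC004080.5, which reached 5.60 TPM, about the level of HOXA3 itself.

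HOXA4, HOXA5 and HOXA6, the remaining anterior and central genes, had no value past the threshold in either clone. HOXA4 ranged from 2.39 to 4.60 TPM over the 8 libraries, and its scaled differences were 0.13 in C17.2 (interval -0.24 to 0.50) and 0.21 in C3.2 (-0.16 to 0.59). HOXA5 ranged from 6.68 to 9.98 TPM, with -0.07 in C17.2 (-0.36 to 0.23) and 0.29 in C3.2 (-0.01 to 0.58). HOXA6 ranged from 6.83 to 10.36 TPM, with 0.05 in C17.2 (-0.14 to 0.24) and -0.00 in C3.2 (-0.19 to 0.19). The adjusted p values of these 6 limma tests lay between 0.192 and 1.

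The resistant-against-parental difference was then compared between the clones. None of the 9 tested members passed limma's interaction test, where 9.7% of all tested genes did, and 1 of 9 (HOXA3) had an unadjusted p under 0.05, where 26.7% of all did. HOXA3 had the lowest adjusted p, with a difference of -0.67 (C17.2 minus C3.2, interval -1.10 to -0.24, adjusted p = 0.0667). It passed without C3.2 parental replicate 2 (-0.86, adjusted p = 0.0286), and PBX3 passed without C3.2 resistant replicate 1 (0.46, adjusted p = 0.0413). For HOXA9 the difference was 0.13 (interval -0.07 to 0.32) and for MEIS1 -0.13 (-0.31 to 0.04).

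In untreated cells the clones did not differ past the threshold for any of the 9 members in limma, with an adjusted threshold that 22.7% of all tested genes passed. None had an unadjusted p under 0.05, where 36.5% of all genes did. The numbers in the library titles fall in a separate range for each clone. If these numbers mark batches, a difference between the clones cannot be told apart from one between batches. The same limit holds for other values compared between the clones. PBX3 had the lowest adjusted p, with 0.32 more in C17.2 (interval -0.02 to 0.66, adjusted p = 0.156). HOXA9 differed by 0.05 (-0.08 to 0.19) and MEIS1 by 0.08 (-0.05 to 0.21).

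Ratios within a library do not depend on how libraries are scaled. PBX3 divided by HOXA9 was 1.12 and 1.06 in C17.2 parental cells and 0.668 and 0.653 in resistant cells, a mean of 1.09 ± 0.046 against 0.66 ± 0.01 (SD, n = 2). The C3.2 ratio was 0.935 and 0.867 in parental cells and 0.567 and 0.451 in resistant cells, a mean of 0.901 ± 0.0483 against 0.509 ± 0.0818 (SD, n = 2). PBX3 RNA was thus at or near the level of HOXA9 RNA in parental cells and well under it in all 4 resistant libraries. MEIS1 divided by HOXA9 was 1.15 and 1.11 in C17.2 parental cells against 1.17 and 1.12 in resistant cells. In C3.2 it was 1.12 and 1.10 against 1.33 and 1.37, without overlap. With 2 libraries a group, the exact permutation test within a clone (two-sided) cannot go below 0.333, which is the value it gave for PBX3 in both clones and for MEIS1 in C3.2.

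**Figure D3:**
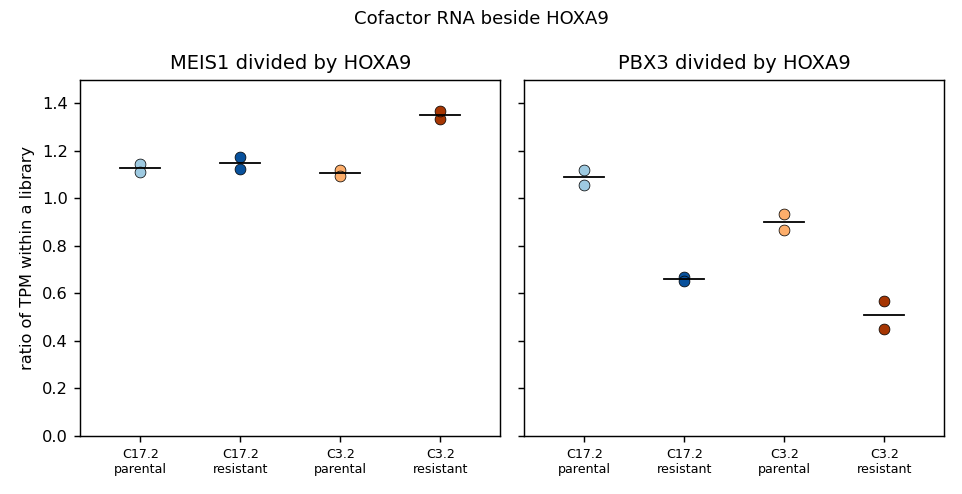
TPM of MEIS1 (left) and PBX3 (right) divided by TPM of HOXA9 in the same library, with 1 point per library and a bar at the mean of 2 libraries. The PBX3 ratio lies between 0.867 and 1.12 in parental libraries and between 0.451 and 0.668 in resistant ones, and the MEIS1 ratio lies between 1.10 and 1.37 in all 8.

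The make-up of the HOXA output was also followed as shares of the summed TPM of the 11 HOXA genes, which came to between 122.56 and 161.71 TPM per library. HOXA9 alone held 46.0% and 46.0% of the sum in C17.2 parental cells and 45.3% and 48.1% in resistant cells. In C3.2 it held 45.0% and 44.6% in parental cells and 39.8% and 40.0% in resistant cells. The posterior genes HOXA9 to HOXA13 together held 67.3% ± 0.494 of it in C17.2 parental cells and 67.1% ± 1.87 after resistance (SD, n = 2). In C3.2 they held 66.0% ± 0.837 and 60.6% ± 0.653 (SD, n = 2), a difference of -5.43 percentage points at the smallest exact permutation p of 0.333. HOXA7 held 16.8% ± 1.65 of the sum in C3.2 parental cells and 20.7% ± 0.753 in resistant cells, the largest gain in share of any HOXA gene there. HOXA3 held 3.87% ± 0.0344 in C17.2 parental cells and 2.65% ± 0.15 in resistant cells.

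**Figure D4:**
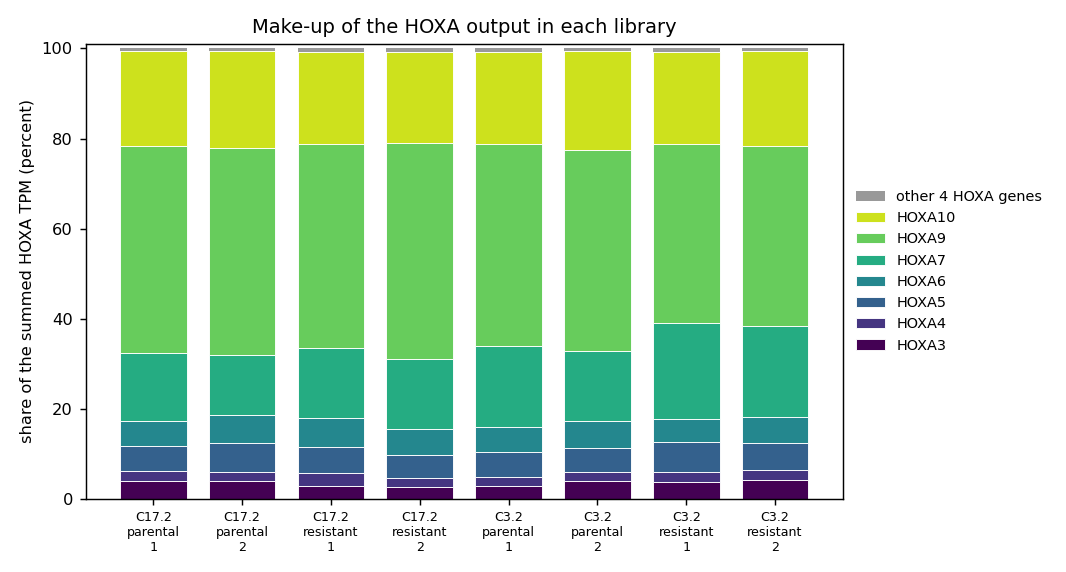
Share of each HOXA gene in the summed TPM of the 11 HOXA genes, in percent, as 1 stacked bar per library. HOXA9 holds between 39.8% and 48.1% of every bar, and the HOXA7 part is widest in the C3.2 resistant libraries.

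Other RNAs of the HOXA locus and other HOX clusters gave no call between resistant and parental cells. In a list of 12 further genes of the locus, 4 were tested and 0 passed in either clone. HOXA10-AS (2.12 to 3.00 TPM), HOTAIRM1 (0.50 to 1.52 TPM) and HOXA-AS3 (0.74 to 1.22 TPM) are noncoding RNAs, and HOXA2 (0.49 to 1.09 TPM) is the coding gene among them. MIR196B was listed at 0 in all libraries. Of 28 genes of the HOXB, HOXC and HOXD clusters, 2 were tested, HOXC4 (2.39 to 3.40 TPM) and HOXB7 (0.66 to 2.71 TPM). Neither passed between resistant and parental cells, while between the parental clones HOXB7 was called higher in C17.2. No other gene of these clusters reached 1 TPM in any library.

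Among other TALE genes, 6 of 9 were tested. TGIF1, a TALE repressor, fell in C17.2 (-0.41, limma adjusted p = 0.0167), and none passed in C3.2. PBX2, the nearest relative of PBX3 with a substantial level (29.87 to 47.35 TPM), did not pass in C17.2 (0.07, interval -0.06 to 0.19) or in C3.2 (-0.18, -0.31 to -0.06, limma adjusted p = 0.0727). PBX2 was below PBX3 in the C17.2 parental libraries and of a like level in the resistant ones.

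Other KMT2A-fusion targets moved in both directions. Of 20 tested, 3 rose and 7 fell in C17.2, and 2 rose and 3 fell in C3.2, where 12.9% and 14.2% of all tested genes did in C17.2 and 4.54% and 6.74% in C3.2. The medians were -0.00 and 0.08 on the log2 scale, beside -0.00 and 0.00 over all tested genes. The C17.2 count holds 2 genes that reached 1 TPM only in the group where they were high, so that their passing says nothing about the list, and 2 rises and 6 falls are left without them. These are IGF2BP2, an RNA-binding protein, at 2.85 and 2.83 TPM in C17.2 parental cells and 0.32 to 0.84 TPM in the 6 other libraries, and EYA1, at 0.98 and 1.37 TPM in C17.2 resistant cells and 0.14 to 0.46 TPM in the 6 others. Of the rest in C17.2, LMO2 (-0.58, adjusted p = 0.0013), a hematopoietic transcription cofactor, fell and CPEB2 (0.29, adjusted p = 0.0252) rose in limma. In C3.2 IKZF2 (-0.89, adjusted p = 0.00121) and MYB (-0.71, adjusted p = 0.000637) fell the most, and ARID1B (0.44, adjusted p = 0.00227) and PROM1 (0.23, adjusted p = 0.0251) rose. MYB and FLT3, like PBX3, fell in both clones.

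Of 11 tested genes known as targets of HOXA9 and MEIS1, 2 rose and 5 fell in C17.2, and 2 rose and 4 fell in C3.2, some of them also on the list of KMT2A-fusion targets. Over all tested genes 27.2% passed in C17.2 and 11.3% in C3.2. ID2 (0.62 in C17.2 and 0.76 in C3.2) and ERG (0.23 and 0.19) rose in both clones. IGF1R fell in C17.2 (-0.79), and SOX4 fell in both (-0.30 and -0.59). The medians were -0.06 and -0.11 on the log2 scale, beside -0.00 and 0.00 over all tested genes. HOXA9 and MEIS1 themselves had no call in either clone.

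Of 20 regulators of HOXA transcription tested, 1 rose and 4 fell in C17.2, and 1 rose and 1 fell in C3.2, where 27.2% and 11.3% of all tested genes passed in either direction. The medians were -0.09 and -0.05 on the log2 scale, beside -0.00 and 0.00 over all tested genes. CTCF itself, the tagged gene, was between 32.17 and 35.39 TPM in the 4 parental libraries, 51.06 and 54.73 TPM in C17.2 resistant cells and 44.18 and 41.49 TPM in C3.2 resistant cells. It rose by 0.44 in C17.2 (limma adjusted p = 0.000865) and by 0.34 in C3.2 (limma adjusted p = 0.0067). PSIP1, which tethers KMT2A complexes to chromatin, fell in both clones (-0.38 and -0.33). KMT2A was between 33.66 and 49.23 TPM and did not pass in either clone. This is a value per gene, which does not separate RNA of the KMT2A fusion from RNA of the unrearranged gene. Whether any of these differences has a part in the PBX3 values was not tested.

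The genes around each locus were taken as the 5 nearest tested coding genes on each side, a list made after values had been seen. None of the 10 around PBX3 fell in C17.2, where 4 rose, and 2 rose and 1 (ZBTB43, -0.71, limma adjusted p = 0.0449) fell in C3.2. The nearest, MAPKAP1, 40.1 kb from PBX3, rose in C17.2 (0.35, limma adjusted p = 0.0249). Around HOXA, SNX10 (-0.83) and JAZF1 (-1.03) fell and CBX3 (0.25) and HNRNPA2B1 (0.32) rose in C17.2, and none of the 10 passed in C3.2. Around MEIS1, 3 rose and 3 fell in C17.2, SLC1A4 (-1.24), CEP68 (-0.59) and SPRED2 (-0.36) being the falls, and none passed in C3.2. These 3 genes lie 1000.8 to 1409.6 kb from MEIS1, and those named around HOXA lie 645.3 to 904.7 kb from it. Over all tested genes 12.9% rose and 14.2% fell in C17.2, and 4.54% rose and 6.74% fell in C3.2.

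Across the 8 libraries, the coding genes most like PBX3 in log2(scaled TPM + 1) were EZH2 (Pearson's r = 0.979), CCDC189 (0.969) and HIPK2 (0.969), out of 2592 genes with a mean of at least 5 TPM and an SD of at least 0.2. For HOXA9 they were RPL17-C18orf32 (0.979), SF3A3 (0.968) and PHAX (0.965), and for MEIS1 COPS7A (0.986), MED12L (0.933) and HGSNAT (0.927). HOXA9 and MEIS1 themselves varied little, with SDs of 0.083 and 0.092, and their matches were the highest of 2593 candidates. EZH2, the histone methyltransferase of the Polycomb complex that silences HOXA genes, had differences of -0.29 in C17.2 (limma adjusted p = 0.0504) and -0.32 in C3.2 (limma adjusted p = 0.0664). Among the members, PBX3 correlated with HOXA9 at 0.60, with MEIS1 at -0.60 and with HOXA7 at -0.75, and HOXA9 with MEIS1 at -0.00. These are descriptions over 8 libraries that share clone and treatment.

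Of 8 B-lineage markers, 6 exceeded 10 TPM in every library, and their sum was between 671.11 and 797.88 TPM, whereas the 8 myeloid markers summed to between 4.45 and 12.80 TPM, with CD33 between 1.65 and 9.02 TPM, and the T-cell and erythroid markers to at most 0.25 and 0.80 TPM. These levels match the B-ALL label, although BLNK was at most 0.83 TPM. Of 7 B-lineage markers tested, 4 fell in C17.2, and 3 fell and 1 rose in C3.2. Of all tested genes, 12.9% rose and 14.2% fell in C17.2, and 4.54% rose and 6.74% fell in C3.2. In resistant cells CD79B fell in both clones (-1.51 and -1.02), and CD79A fell in both (-0.42 and -0.20), beside the PBX3 falls. VPREB1 fell (-0.51) and PAX5 rose (0.27) in C3.2. Of 3 myeloid markers tested, CD33 (-1.15) and CSF1R (-0.65) fell in C17.2, and LYZ had a value above 0 (0.64, interval 0.12 to 1.16, limma adjusted p = 0.0724). None passed in C3.2, where 2 of the 3 had values above 0 and the median was 0.50. CD33 passed limma's interaction test, with the lower difference in C17.2. The part of these markers in the PBX3 result was not tested. Protein-coding genes took 36.0% to 43.3% of the TPM of a library, scale factors lay between 0.899 and 1.15, and the 2 libraries of a group correlated at 0.968 to 0.979 across genes, which are not independent replicates. The sequencing depth is unknown, because TPM do not record it, and counting intervals are not given.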

How the data were processed

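The authors prepared ribosomal RNA depleted total RNA libraries (Kapa RNA HyperPrep with RiboErase), trimmed reads with TrimGalore 0.6.3, aligned them to GRCh38.p13 using STAR 2.7.9a, and quantified genes with RSEM 1.3.1 (Gencode release 31). The deposited TPM are listed for each gene in each library to 2 decimals and were not scaled between libraries. The methods describe paired-end reads and the labels single-end reads. The paper names another series number for its RNA-seq, and samples were matched by clone and state. Groups came from the clone labels, and replicate numbers are only names. No source says that the 2 libraries of a group came from separate cultures, so p-values measure only the spread between these samples, which may be technical.

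Genes with at least 1 TPM in at least 1 library were tested. Scale factors of the libraries were trimmed means of log2 ratios (30% of ratios and 5% of means trimmed from each end, genes of at least 1 TPM in every library), and log2(scaled TPM + 1) was tested using limma 3.58.1 under R 4.3.3 (lmFit, contrasts.fit, and eBayes in which the prior variance follows the mean level). The 4 groups entered 1 model, and two-sided p-values were Benjamini-Hochberg adjusted over all tested genes. Fold changes on this scale understate the change of low genes. A first definition of the scale factors (genes above 0 in every library, ratios to the log2 of the mean level) left HOXA3 in C17.2 at an adjusted p of 0.0513. The definition was changed after that value had been seen, to follow an earlier processing of these data. Many variants of gene set, reference and trimming were tried, and the one whose counts of calls over all genes came closest to that processing was kept. HOXA3 passes the threshold by this choice. The first definition and 4 others are given as alternatives. Intervals are 95% intervals of the fit. Shares and ratios were tested by exact permutation. The study's own limma-voom test was not run, since it takes counts.

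The members and gene lists were chosen with earlier results of these data known. Genes named were all members, the tested genes of the HOXA locus, from each other list the 2 largest rises and falls per clone past the threshold, and the 3 genes most like HOXA9, MEIS1 and PBX3. MYB, FLT3, ERG, SOX4, PSIP1, PBX2, KMT2A, EZH2, CD33, BLNK, the neighbors of each locus and the overlapping RNAs were named after their values were seen where the rule did not name them. Some results that the rule would name are not reported here. The model was also run on simulated data with independent normal noise. That run cannot check whether the 2 libraries of a group are separate replicates, and no value given here rests on it. Sequences and plots were handled in Python 3.11.15 (pandas 2.3.3, matplotlib 3.10.9).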

Additional observations from a re-analysis of the deposited data

How the results depend on the processing

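Each test was repeated under 21 alternatives (20 for the comparisons across clones), 5 of them added after the data were seen. In a fit without 1 library, the lone sample of its group is assumed to vary like the other groups. No paired analysis was possible because the labels give no replicate numbers that link samples. The median of all genes shifted by 0.13 in C17.2 on TPM as deposited. On TPM rescaled to the protein-coding total, the called members of C17.2 were PBX3 and MEIS1, and HOXA3 was not called. In C17.2, the count of 2 called members became 0 on TPM as deposited, and 1 (PBX3) with quantile normalization, no filter, no intensity trend, or scale factors from genes above 0 in every library or from all tested genes, with either reference, and 0 to 2 without 1 library. In C3.2, the count of 1 became 3 when TPM were rescaled to the protein-coding total, 2 after quantile normalization or at a minimum of 1 TPM in 2 libraries, 0 when the clone was fitted alone, and 0 to 1 without 1 library. The interaction and the parental comparison had 0, and 0 to 1 without 1 library (PBX3 between parental clones without either C3.2 resistant library, adjusted p = 0.0185 and 0.0186). The posterior share of C17.2 changed by -1.50 to 1.14 points without 1 library. In C3.2, against the summed HOXA output, the log2 ratio changed by 0.12 for MEIS1 and -0.9998 for PBX3, and the PBX3 to HOXA9 ratio by -0.9974 to -0.668 without 1 library.

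Of the single-gene values, 679 kept direction and side of the threshold, 23 lost a call, 9 gained one and 27 changed sign, none of them a called value. On TPM as deposited, HOXA5 in C17.2 became 0.0837, HOXA10 in C17.2 0.13, HOXA6 in C3.2 0.0543, and the difference between clones 0.00394 for HOXA4 and 0.0131 for HOXA10. Over protein-coding genes, HOXA5 in C17.2 became 0.0151, HOXA10 in C17.2 0.0562, HOXA6 in C3.2 0.088 and HOXA9 in C3.2 0.0235. HOXA6 in C3.2 became 0.00129 with quantile normalization, and 0.0094 and 0.00887 with scale factors from all tested genes. Without 1 library, C17.2 values ran from -0.084 to 0.343 for HOXA4, -0.184 to 0.0528 for HOXA5 and -0.0315 to 0.138 for HOXA6. C3.2 values ran from -0.0653 to 0.0628 for HOXA6 and -0.0109 to 0.124 for HOXA10. Differences between the clones ran from -0.295 to 0.132 for HOXA4 and -0.0295 to 0.14 for HOXA6, and parental differences from -0.0199 to 0.366 for HOXA3, -0.0119 to 0.116 for HOXA6 and -0.0425 to 0.0925 for HOXA10. The causes were not tested.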
